A study of Mus musculus with 11 samples.

Results

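Haemoglobin is built from pairs of alpha and beta globin chains that each hold a haem group. Red-cell precursors of the adult marrow make the adult chains, and the embryonic chains belong to the primitive red cells of the early embryo. Alpha haemoglobin stabilising protein, encoded by Ahsp, is the chaperone of free alpha chains. Erythroid activators such as Gata1 and Klf1 drive the adult genes, and globin output is matched to the supply of haem and iron.

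The genes described here are 8 in number and were listed by name: the adult alpha genes Hba-a1 and Hba-a2, the adult beta genes Hbb-bs and Hbb-bt, the embryonic genes Hbb-bh1, Hbb-y and Hba-x, and Ahsp. Of these, 7 were matched to the 53700 genes of the count table through their Ensembl identifiers, and Ahsp was not analysed here. The filter on low counts left 16639 genes for testing, among them 4 of the 7, namely the adult globins.

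RNA sequencing was made on 11 libraries of sorted cells labelled ST-HSC (short-term haematopoietic stem cells) from the bone marrow of C57BL/6j mice. All hosts carried a transplanted acute myeloid leukaemia with the Flt3-ITD mutation and a Tet2 knockout, so the control hosts carried it too. Hosts labelled CXCL12 WT (titled Cre_neg) or CXCL12 KO (titled Cre_pos) were given vehicle or a combination of cytarabine, doxorubicin and quizartinib, the last an inhibitor of FLT3. This gave 3 WT vehicle libraries (240, 253 and 265), 2 KO vehicle libraries (249 and 275), 3 WT treated libraries (252, 262 and 266) and 3 KO treated libraries (257, 263 and 276). The promoter that drives Cre, the age of the mice, pooling of animals, and the share of sorted cells that came from graft or host are not given in the sources used here. No label ties libraries of 1 group to separate animals, and the spread behind each p-value is that of these libraries alone, which may be technical.

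Gene counts per library ran from 8129032 (265) to 22171569 (275) in vehicle and from 22427405 (262) to 31061919 (252) in treated libraries, so depth and treatment cannot be told apart. The summed level of 10 stem and progenitor markers was 535 to 1709 counts-per-million (CPM) over the libraries. Each of the 10 was above 0 in every library except Slamf1, which was at 0 in 240, 253, 265 and 257. A level above 0 can be very low. In 253, Hlf and Procr were each at 0.0583 CPM and Ly6a at 1.11 CPM, while Cd48 and Cd34 were at 270 and 111 CPM. The summed level of 8 granulocyte markers was 9724 to 144251 CPM. Cxcl12 itself was low in the sorted cells, at 0 to 14.4 CPM in WT vehicle, 0 and 5.36 CPM in KO vehicle, 0.826 to 1.59 CPM in WT treated and 1.2 to 4.63 CPM in KO treated libraries. The deletion is labelled for the host, so this level does not check it in the surrounding stroma.

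The coding sequences of the adult pairs, taken from GENCODE M21 transcripts, show how alike the members are. Hba-a1 and Hba-a2 were identical at 425 of 426 coding bases (99.8%), and Hbb-bs and Hbb-bt at 440 of 441 (99.8%). The single difference was C381T in the alpha pair (Hba-a1 base, position, Hba-a2 base) and C417T in the beta pair (Hbb-bs base, position, Hbb-bt base), counted from 1 at the A of the start codon. The 29 coding bases around each difference follow, 5′ to 3′, with the differing base in capitals. That base is the only coding base that differs between the copies of a pair.
Hba-a1: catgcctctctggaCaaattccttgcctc
Hba-a2: catgcctctctggaTaaattccttgcctc
Hbb-bs: gtggctggagtggcCgctgccctggctca
Hbb-bt: gtggctggagtggcTgctgccctggctca
Of all stretches of 50 bases in the transcripts, 67.5% of those of Hba-a1 and 86.9% of those of Hba-a2 were also found in a transcript of another globin gene. The share was 65.8% for Hbb-bs and 58.3% for Hbb-bt. Reads that map to more than 1 place made up 11.6% to 30.0% of the reads per library and were not counted for a gene. The levels of single copies are therefore uncertain, and the level of each gene may be understated.

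The promoters of the adult genes are shown because these genes varied together over the libraries. The part of the promoters in that variation was not tested. Each line gives the 150 bases before the transcription start, 5′ to 3′ on the gene's strand, from RefSeq on GRCm38.p6, with 4 motifs in capitals where they occur on either strand. The motifs are CACCC, the box bound by Klf1, then CCAAT, the box of that name, then GATAA, the site bound by Gata1, and TATAA, the TATA box. The windows are chr11:32283522-32283671 (plus strand) for Hba-a1, chr7:103827929-103828078 (minus strand) for Hbb-bs, chr7:103813924-103814073 (minus strand) for Hbb-bt and chr7:103853208-103853357 (minus strand) for the embryonic Hbb-y, shown for contrast.
Hba-a1: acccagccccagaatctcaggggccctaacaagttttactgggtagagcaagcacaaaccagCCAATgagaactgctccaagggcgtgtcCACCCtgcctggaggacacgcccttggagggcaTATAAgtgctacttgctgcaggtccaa
Hbb-bs: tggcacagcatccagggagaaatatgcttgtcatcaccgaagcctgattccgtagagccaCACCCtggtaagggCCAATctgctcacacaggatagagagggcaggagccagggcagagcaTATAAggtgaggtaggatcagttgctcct
Hbb-bt: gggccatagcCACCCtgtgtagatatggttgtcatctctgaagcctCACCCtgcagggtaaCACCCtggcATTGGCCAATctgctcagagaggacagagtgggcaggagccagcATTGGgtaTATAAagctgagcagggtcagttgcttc
Hbb-y: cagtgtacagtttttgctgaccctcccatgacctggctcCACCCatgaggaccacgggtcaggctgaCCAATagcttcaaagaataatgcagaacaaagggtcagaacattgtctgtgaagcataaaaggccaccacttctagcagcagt
In these lines the CACCC letters begin 60 bases before the start in Hba-a1, 90 in Hbb-bs and 111 in Hbb-y, and occur 3 times in Hbb-bt, at 140, 104 and 89. The TATAA letters begin 27, 29 and 28 bases before the start in Hba-a1, Hbb-bs and Hbb-bt. The CCAAT letters begin 88, 76 and 83 bases before the start in Hba-a1, Hbb-bs and Hbb-y. In Hbb-bt, CCAAT lies at 75 on the gene's strand, next to a copy on the other strand that begins at 80, and another on that strand begins at 36. None of these matches overlaps one of another motif in the lines shown. GATAA is absent from the 150 bases shown and was found in the 250 bases before the start, beginning at 182 in Hba-a1, 209 in Hbb-bs and 204 in Hbb-bt and, on the other strand, at 162 in Hbb-y. Over all 32851 promoters of 250 bases, CACCC was found in 52.0%, CCAAT in 33.8%, GATAA in 22.6%, TATAA in 22.8%, and both CACCC and CCAAT in 16.9%, so each motif by itself is common. The 250 promoter bases of Hba-a1 and Hba-a2 were 97.6% identical, with 0 mismatches and 6 gapped positions, whereas those of Hbb-bs and Hbb-bt were 68.4% identical.

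The alpha globin transcripts were abundant in all 3 KO treated libraries and in 1 of the 2 KO vehicle libraries. Hba-a1, the alpha gene with more counts, was at 17231, 6932 and 32666 CPM in KO treated libraries 257, 263 and 276, and at 191, 78.2 and 259 CPM in WT treated libraries 252, 262 and 266. In vehicle hosts it was at 92.3 and 5184 CPM in KO libraries 249 and 275, and at 384, 19.8 and 38.8 CPM in WT libraries 240, 253 and 265. The treated groups did not overlap, while in vehicle hosts only 275 lay above the WT libraries and 249 lay below WT 240. Hba-a2, the neighbouring copy, was at 4875, 1463 and 6580 CPM in KO treated and at 50.5, 13.5 and 75.5 CPM in WT treated libraries, in the same order. It was at 21.3 and 1192 CPM in KO vehicle and at 112, 4.84 and 8.12 CPM in WT vehicle libraries. The same libraries were high and low as for Hba-a1, and the lowest KO treated library was 26.7 times the highest WT treated library for Hba-a1 and 19.4 times for Hba-a2.

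The adult beta genes followed the same pattern. Hbb-bs, 1 of the 2 adult beta genes, was at 19306, 10197 and 49390 CPM in KO treated libraries 257, 263 and 276 and at 282, 104 and 231 CPM in WT treated libraries 252, 262 and 266. It was at 124 and 8155 CPM in KO vehicle libraries 249 and 275, and at 436, 24.0 and 30.9 CPM in WT vehicle libraries 240, 253 and 265. By read count Hbb-bs ranked 1 among all genes in 276, 3 in 263, 6 in 257 and 9 in 275. Hbb-bt, its neighbour, was at 5060, 2669 and 14225 CPM in KO treated and at 85.9, 44.8 and 69.6 CPM in WT treated libraries, in the same order. In vehicle hosts it was at 49.1 and 2097 CPM in KO and at 161, 8.63 and 13.0 CPM in WT libraries. The treated groups again did not overlap, with the lowest KO library 36.2 times the highest WT library for Hbb-bs and 31.1 times for Hbb-bt. The KO vehicle libraries again lay on either side of WT 240.

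**Figure D1:**
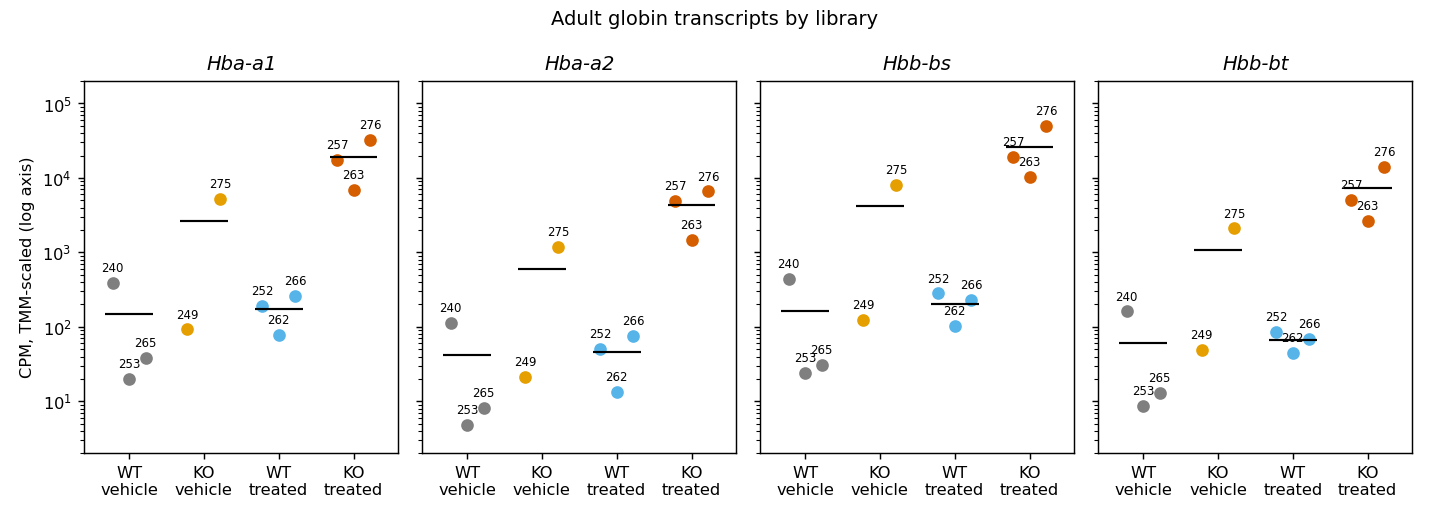
CPM (log axis) of the 4 adult globin genes in each of the 11 libraries, by group, with the library number at each point and the group mean as a bar. All 3 KO treated libraries and KO vehicle 275 lie at 1192 CPM or more for each gene, and the other 7 libraries lie at 436 CPM or less.

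Group levels put KO treated highest and KO vehicle next for all 4 genes. Hbb-bs averaged 26298 CPM ± 20511 (SD, n = 3) in KO treated, 4139 ± 5679 (n = 2) in KO vehicle, 205 ± 91.7 (n = 3) in WT treated and 164 ± 236 (n = 3) in WT vehicle libraries. Hba-a1 averaged 18943 CPM ± 12952, 2638 ± 3601, 176 ± 91.4 and 148 ± 205 in the same order. The neighbours WT treated and WT vehicle overlapped for every gene, as did KO vehicle with both WT groups. KO treated lay above KO vehicle for all 4 genes, by 1.23 to 1.34 times between the nearest libraries. Per kilobase of the GENCODE M21 transcript of each gene (628 bases for Hbb-bs, 699 for Hba-a1, 703 for Hbb-bt and 554 for Hba-a2), Hbb-bs was at 41875 CPM per kb ± 32660, Hba-a1 at 27100 ± 18529, Hbb-bt at 10409 ± 8677 and Hba-a2 at 7773 ± 4703 in KO treated libraries (SD, n = 3). Hbb-bs was above Hba-a1 on this scale in 9 of 11 libraries, Hba-a1 above Hbb-bt in 11 of 11, and Hbb-bt above Hba-a2 in 9 of 11. The scale uses whole transcripts, while reads from stretches shared between copies may not be counted, so the order of the genes is uncertain. In bulk samples, fewer cells of a type and less RNA per cell cannot be told apart.

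The comparison of KO with WT hosts, here called the niche effect, gave the largest fitted differences under treatment, and none of them passed the adjusted test of the 4-group model. The log2 fold change was 6.75 ± 1.59 (SE) for Hba-a1 (108-fold), 6.53 ± 1.64 for Hba-a2, 7.0 ± 1.65 for Hbb-bs and 6.78 ± 1.55 for Hbb-bt. All 4 adult genes were higher in 3 of 3 KO libraries, and each had an edgeR quasi-likelihood p adjusted by Benjamini-Hochberg over all genes of 0.383. Over all genes edgeR called 0 (0% of those tested), where the smallest adjusted p was 0.379 and 1769 genes (10.6%) had an unadjusted p under 0.05. The unadjusted edgeR p was under 0.05 for all 4 adult globins (0.00123, 0.00195, 0.00127 and 0.001), where 7.13% of all genes had such a p and were higher in KO. Complete separation of the groups in that direction was seen for all 4, and for 9.71% of all genes. The median log2 fold change of the 4 was 6.76, beside 0.0989 for all genes tested.

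Other tests of the same counts gave adjusted p-values under 0.05. DESeq2's Wald test gave adjusted p-values of 7.94e-07 for Hba-a1, 8.54e-06 for Hba-a2 and 5.01e-07 for both Hbb-bs and Hbb-bt, and called 249 genes (1.5% of those tested, and 1.3% as higher). limma voom with quality weights called all 4, with adjusted p-values of 0.00256, 0.0034, 0.00258 and 0.00239, in a comparison where it called 4375 genes (26.3%, and 14.2% as higher). Library 257 stood apart from the other KO treated libraries in the reads outside annotated genes (30.4%, against 10.5% in 263 and 5.98% in 276). Without it, edgeR called 1513 genes (9.26%, and 4.38% as higher), among them Hbb-bs (7.18, adjusted p 0.039), Hba-a1 (6.81, adjusted p 0.0412) and Hbb-bt (6.98, adjusted p 0.0345). Over all 18 alternatives the edgeR, DESeq2 or limma adjusted p of Hbb-bs ran from 5.01e-07 to 1. All 72 fitted differences of the 4 genes were above 0. The treated groups did not overlap for any of the 4, so leaving out libraries could not turn the sign. The shared direction is therefore no further evidence.

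In vehicle hosts the KO against WT differences rested on 1 library. The log2 fold change was 4.16 ± 1.46 (SE) for Hba-a1, 3.86 ± 1.5 for Hba-a2, 4.66 ± 1.53 for Hbb-bs and 4.14 ± 1.42 for Hbb-bt, with edgeR adjusted p-values of 0.729, 0.729, 0.667 and 0.719. edgeR called 0 of all genes (0%), and 1128 (6.78%) had an unadjusted p under 0.05. All 4 adult globins had such an unadjusted edgeR p with a higher KO mean, as did 4.8% of all genes. DESeq2 called 2 of the 4, Hbb-bs (adjusted p 0.0221) and Hbb-bt (0.0493), and 224 genes (1.35%, and 1.07% as higher) in all, while limma voom called 0 of all genes. None of the 4 separated the groups, where 13.2% of all genes did. Without library 275 the direction turned, to -0.58 for Hba-a1, -0.87 for Hba-a2, -0.30 for Hbb-bs and -0.21 for Hbb-bt. Without WT vehicle 240 the difference for Hbb-bs was 7.24. Library 275 also stood apart in the summed level of 6 megakaryocyte markers, at 610 CPM against 5.36 to 57.7 CPM in the other 10 libraries, with Pf4 and Ppbp at 252 and 251 CPM. All 6 of these markers had a higher KO mean in vehicle hosts, with a median of 2.53 (log2), where 48.7% of all genes had a positive difference. Only 2 of the 6 separated the groups, beside 13.2% of all genes. In 249, Pf4 and Ppbp were at 2.15 and 0.581 CPM, below the highest WT vehicle levels of 8.98 and 4.07 CPM. Mitochondrial genes took 14.2% (249) and 8.79% (275) of gene counts in KO vehicle and 17.2% (265) to 27.4% (240) in WT vehicle libraries. The part of either in the globin difference was not tested.

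Treatment did not move the globins by more than the spread in WT hosts. The log2 fold change of treated against vehicle was 0.25 ± 1.24 (SE) for Hba-a1, 0.15 ± 1.29 for Hba-a2, 0.33 ± 1.27 for Hbb-bs and 0.13 ± 1.21 for Hbb-bt, with edgeR adjusted p-values of 0.916 to 0.968. Here edgeR called 0 of all genes (0%), with 3036 (18.2%) under an unadjusted p of 0.05 (10.1% as higher), of which 0 were globins, while DESeq2 called 1106 (6.65%, and 3.07% as higher) and limma voom 0. Without WT vehicle 240 these 4 differences were 2.59, 2.85, 2.90 and 2.63, and without WT vehicle 253 they were -0.27, -0.38, -0.19 and -0.39.

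In KO hosts all treated libraries lay above all vehicle libraries, with a wide error. The log2 fold change was 2.84 ± 1.56 (SE) for Hba-a1, 2.83 ± 1.62 for Hba-a2, 2.67 ± 1.59 for Hbb-bs and 2.77 ± 1.51 for Hbb-bt, each with an edgeR adjusted p of 1. Such separation, seen here for all 4, was found for 12.3% of all genes. edgeR called 0 genes (0%), with 612 (3.68%, and 2.7% as higher) under an unadjusted p of 0.05, none of them globins, and DESeq2 called 23 (0.138%, and 0.12% as higher) and limma voom 0. Without KO vehicle 275 the difference for Hbb-bs was 7.71, and without KO vehicle 249 it was 1.68.

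The difference between the niche effects in treated and in vehicle hosts was 2.59 ± 1.92 (SE, log2) for Hba-a1, 2.68 ± 2.01 for Hba-a2, 2.34 ± 1.97 for Hbb-bs and 2.64 ± 1.88 for Hbb-bt. The edgeR adjusted p was 0.806 to 0.838, so the niche effect was not shown to differ with treatment. edgeR called 0 genes (0%) for this difference, with 1050 (6.31%, and 3.04% as higher) under an unadjusted p of 0.05 and no globin among them, while DESeq2 called 58 (0.349%, and 0.144% as higher) and limma voom 0. Without WT vehicle 240 the values of Hba-a2 and Hbb-bs were -0.025 and -0.24.

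Averaged over treatment, the KO minus WT difference was 5.45 ± 1.07 (SE, log2) for Hba-a1, 5.19 ± 1.10 for Hba-a2, 5.83 ± 1.12 for Hbb-bs and 5.46 ± 1.05 for Hbb-bt. The edgeR adjusted p was 0.165, 0.173, 0.157 and 0.157 in that order. edgeR called 0 genes (0%), with 1811 (10.9%, and 8.1% as higher) under an unadjusted p of 0.05, the 4 adult globins among them. DESeq2 called all 4, with 366 genes (2.2%, and 1.87% as higher) in all, and limma voom called Hba-a1 and Hbb-bs (both with an adjusted p of 0.0487), with 545 genes (3.28%, and 2.01% as higher) in all. edgeR called all 4 globins when WT vehicle 240, KO vehicle 249 or KO treated 257 was left out, with 108 (0.654%), 23 (0.122%) and 1000 (6.12%) genes called in those fits. Without KO vehicle 275, the differences were 3.08 for Hba-a1, 2.83 for Hba-a2, 3.35 for Hbb-bs and 3.28 for Hbb-bt.

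**Figure D2:**
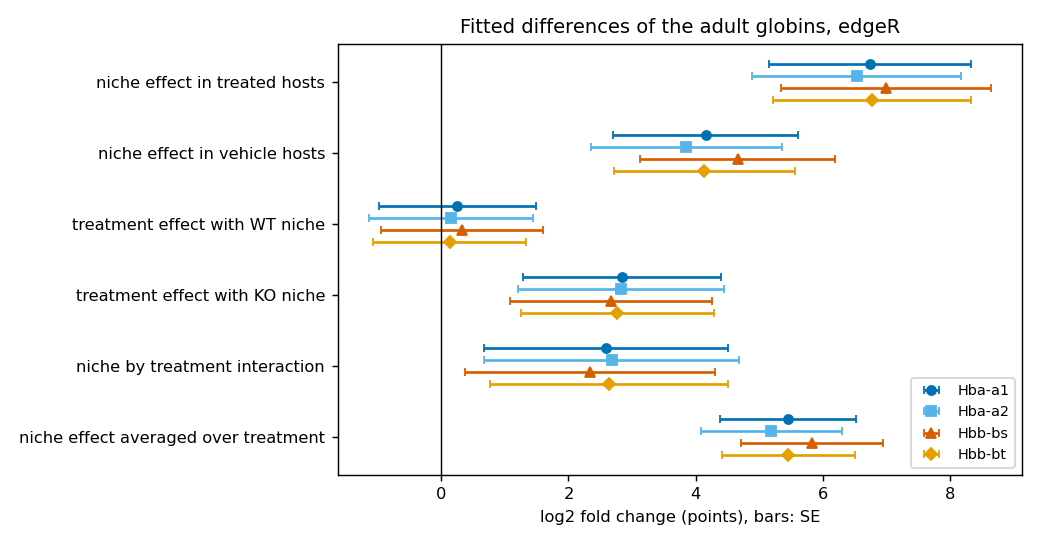
Fitted log2 fold changes of the 4 adult globin genes (points) with their SE (bars) in the 6 comparisons of the edgeR model. The 4 genes lie close together in each comparison, from 6.53 to 7.0 for KO against WT under treatment and from 0.13 to 0.33 for treatment in WT hosts.

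The 4 adult genes were high and low in the same libraries, while their proportions varied. Over the 11 libraries the Pearson correlation of log2 CPM between pairs of adult globins was 0.991 (Hba-a2 with Hbb-bt) to 0.999 (Hbb-bs with Hbb-bt). This is a description, since the genes share libraries and near-identical sequence. The log2 difference of Hba-a2 minus Hbb-bt varied most among the pairs, from -1.72 (262) to 0.12 (266). The adult globins together took 0.00482% (253) to 10.5% (276) of the gene counts. Within the beta pair, Hbb-bt took 20.5% (275), 20.8% (257), 20.7% (263) and 22.4% (276) of the counts in the 4 libraries with more than 1% of counts in adult globins. In the other 7 libraries it took 23.2% (266) to 30.2% (262), and the ranges did not overlap. The Wilson 95% interval, which covers counting error only, was 22.3% to 22.4% in 276 and 22.1% to 24.3% in 266. Within the alpha pair Hba-a2 took 14.7% (262) to 22.6% (240), with no such split.

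The ratio of alpha to beta counts was between 0.617 and 1.12. A larger share of 50-base stretches was also found in another globin gene for the alpha pair (67.5% and 86.9%) than for the beta pair (65.8% and 58.3%). Reads from such stretches may not be counted, so the ratio does not measure the balance of alpha and beta transcripts. The ratio of counts was 0.617 (276 and 262), 0.622 (275), 0.653 (263), 0.656 (252) and 0.658 (249) in 6 libraries, and 0.755 (253), 0.833 (240), 0.907 (257), 1.07 (265) and 1.12 (266) in the other 5. Reads outside annotated genes were 5.98%, 6.33%, 9.41%, 10.5%, 10.1% and 18.8% in those 6 libraries, and 18.0%, 28.7%, 30.4%, 28.8% and 16.6% in those 5. The part of these reads in the ratio was not tested. The ratio was 0.617 to 0.907 in KO treated, 0.617 to 1.12 in WT treated, 0.755 to 1.07 in WT vehicle and 0.622 and 0.658 in KO vehicle libraries. The treated groups overlapped, and both KO vehicle libraries lay below the WT vehicle libraries.

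**Figure D3:**
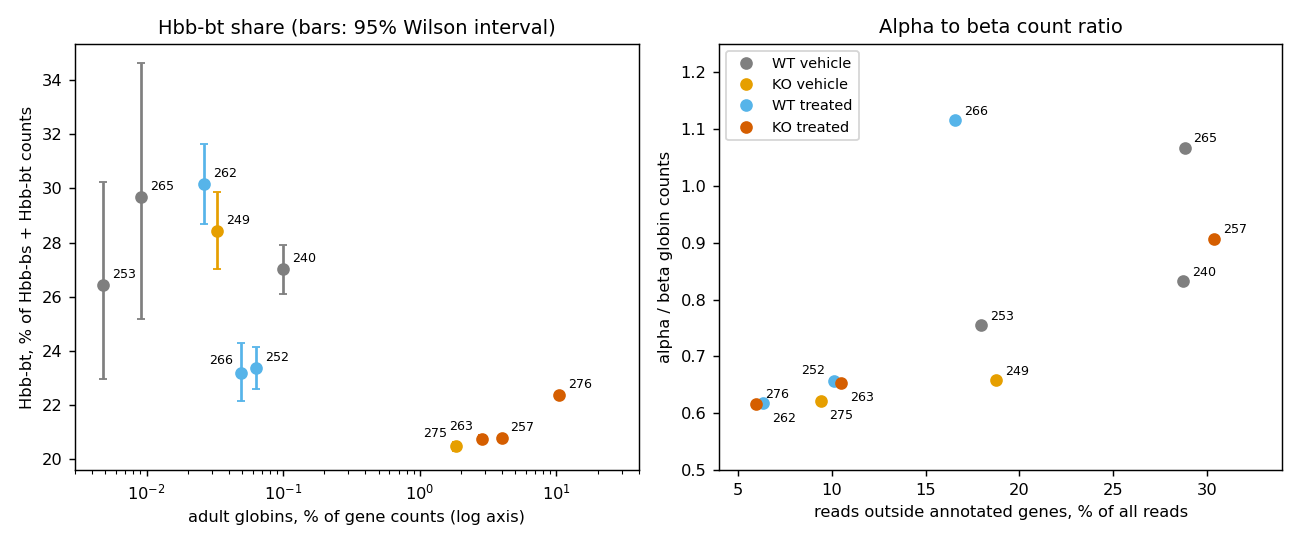
Left, Hbb-bt as a percent of beta globin counts (bars, Wilson 95% interval) against adult globins as a percent of gene counts (log axis); right, the ratio of alpha to beta counts against the percent of reads outside annotated genes; 1 point is 1 library. The 4 libraries with the most globin lie between 20.5% and 22.4% on the left, and the 5 with a ratio of 0.755 or more lie at 16.6% or more on the right.

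The embryonic genes were at or near 0 in the same libraries. Hbb-bh1, an early beta-like chain, had 0 counts in all 11 libraries, where a count of 0 allows up to 3 counts, or 0.0966 CPM (252) to 0.369 CPM (265) with unscaled library sizes. Hbb-y, the embryonic epsilon-type chain, had 1 count in WT treated 252, 20 in KO treated 276 and 0 in the other 9. The 20 counts in 276 were 0.00116% of the beta-type counts there (Wilson 95% interval 0.000753% to 0.0018%). Hba-x, the embryonic zeta chain, had 16 counts in KO treated 257, which was 0.00332% of its alpha-type counts (0.00205% to 0.0054%), and 0 in the other 10. The adult genes therefore made up nearly all counts of the listed globins in each library, and none of the 3 embryonic genes passed the low-count filter.

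The enzymes that make haem, which every globin chain binds, were mostly higher in KO treated libraries. Of 9 such genes, 9 were tested, 9 had a positive KO minus WT difference under treatment, 7 had an unadjusted edgeR p under 0.05 and 0 passed the adjusted test, with a median log2 fold change of 1.42. Over all genes tested, 53.9% were positive in this comparison, 7.13% were positive with such a p, and 9.71% had every KO library above every WT library; these shares stand beside the counts of each list that follows. Alas2, the enzyme of the initial and rate-limiting step in erythroid cells, was at 152, 632 and 2953 CPM in KO treated and at 3.52, 2.93 and 5.21 CPM in WT treated libraries, with a difference of 8.33 ± 1.65 (SE). Fech, which inserts iron to complete haem, was at 88.3, 291 and 1194 CPM in KO treated and at 27.1, 38.5 and 23.2 CPM in WT treated libraries. Cpox, a further enzyme of the pathway, had a difference of 2.50 ± 0.69. All 3 named enzymes separated the treated groups, as did 6 of the 9. In vehicle hosts 8 of 9 were positive and 2 had a higher KO mean with an unadjusted edgeR p under 0.05, with a median of 0.95, beside 48.7% and 4.8% of all genes and a median of 0.

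Iron entry for haem had 5 genes, all tested and all positive under treatment, with a median of 3.03; 3 had an unadjusted edgeR p under 0.05 and 0 passed. Slc25a37, the mitochondrial iron importer mitoferrin 1, was at 38.3, 76.7 and 380 CPM in KO treated and at 9.24, 12.7 and 10.5 CPM in WT treated libraries (3.93 ± 0.82). Tfrc, the transferrin receptor, was at 32, 85.9 and 609 CPM against 26.6, 25.3 and 18.2 CPM (3.37 ± 0.90). Library 257 was the lowest of the KO treated libraries for both, although it exceeded 263 in all 4 adult globins. In vehicle hosts the median was 1.26 and 0 of 5 had an unadjusted edgeR p under 0.05.

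Among 8 activators of globin transcription, 7 were positive under treatment, 3 had an unadjusted edgeR p under 0.05 and 0 passed, with a median of 1.13. Klf1, the activator of the adult beta gene, was at 55, 30.6 and 189 CPM in KO treated and at 1.92, 5.53 and 0.103 CPM in WT treated libraries (5.17 ± 1.2). Gata1, the erythroid master regulator, was at 18.7, 13.3 and 83.5 CPM against 2.81, 7.44 and 3.15 CPM (3.11 ± 1.24), and its cofactor Zfpm1 differed by 2.53 ± 0.77. Tal1, a partner of Gata1, had a value of 1.62 ± 0.78 and an unadjusted edgeR p of 0.0618. Ldb1, Nfe2 and Lmo2, which stem and progenitor cells also express, had values of 0.00, -0.09 and 0.18 (named after their values were seen). In vehicle hosts 4 of 8 were positive, 0 had an unadjusted edgeR p under 0.05 and the median was 0.05.

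Repressors of the embryonic globins numbered 4, all positive under treatment with a median of 0.50; 1 had an unadjusted edgeR p under 0.05 and 0 passed. That gene was Sox6, at 6.20, 8.98 and 43.8 CPM in KO treated and at 2.32, 1.10 and 0.619 CPM in WT treated libraries (3.86 ± 1.45). Bcl11a, the other well-known silencer of embryonic beta-type genes, was at 57.7, 62.0 and 44.3 CPM against 54.9, 42.1 and 36.6 CPM, and the groups overlapped. In vehicle hosts 2 of 4 were positive, and Sox6 had 5.20 ± 1.67 with an unadjusted edgeR p of 0.0092.

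Of 5 genes that balance haem with globin, 4 were positive under treatment, 2 had an unadjusted edgeR p under 0.05 and 0 passed, with a median of 1.49. Ube2o, a ubiquitin ligase that clears unneeded proteins, free alpha chains included, from maturing red cells, was at 21.5, 60.3 and 197 CPM in KO treated and at 5.78, 3.46 and 4.54 CPM in WT treated libraries (4.34 ± 0.77). Eif2ak1, the kinase that slows globin translation when haem is short, was at 26.8, 63.7 and 136 CPM against 30.5, 33.4 and 26.7 CPM, and library 257 lay within the WT range. Hmox1, which degrades haem and is also a macrophage marker, was at 47.9, 50.6 and 46.0 CPM against 4.92, 6.22 and 23.6 CPM. In vehicle hosts 3 of 5 were positive and 1 had an unadjusted edgeR p under 0.05.

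**Figure D4:**
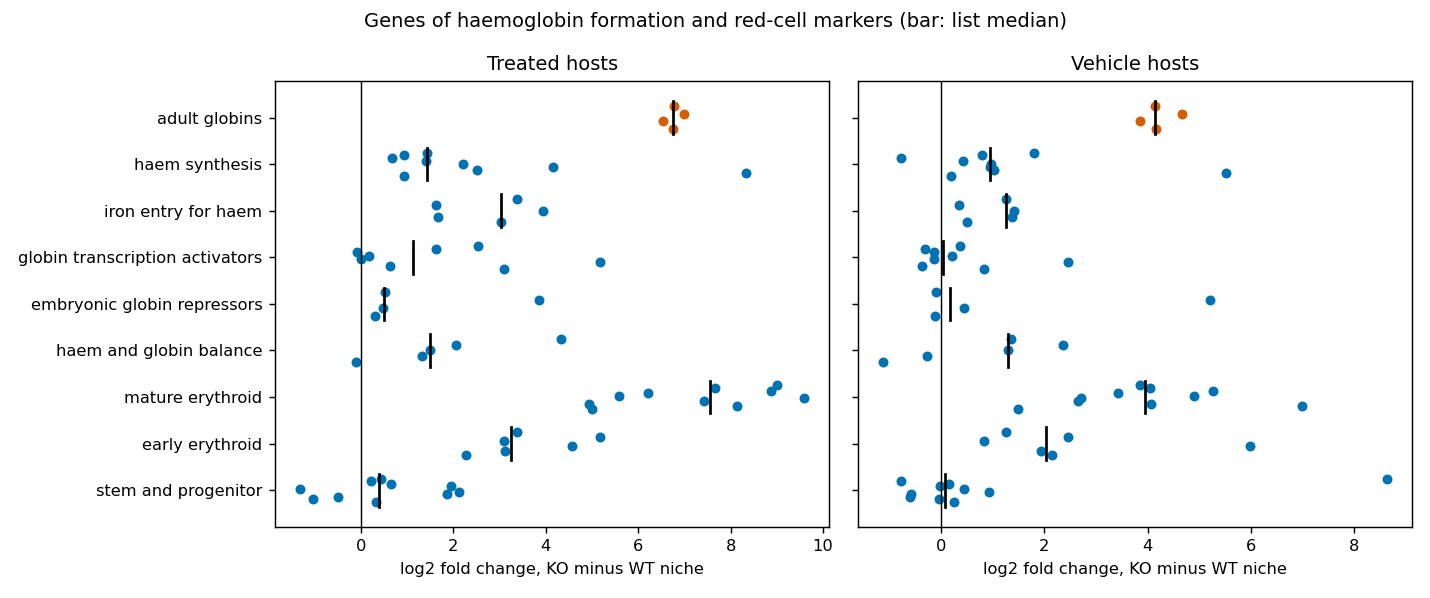
Log2 fold change of KO against WT hosts, treated (left) and vehicle (right), for each gene (point) of the globin, haem, iron, regulator and marker lists, with the list's median as a bar. Under treatment the medians are 6.76 for adult globins, 7.55 for mature erythroid markers, 1.42 for haem synthesis and 0.39 for stem and progenitor markers.

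Markers of red-cell precursors moved with the globins. Of 10 mature erythroid markers of the membrane and its skeleton, 10 were positive under treatment, 10 separated the groups and 10 had an unadjusted edgeR p under 0.05, with a median of 7.55 and 0 passing. The shares over all genes were 53.9%, 9.71% and 7.13% in that order. Their summed level was 461 to 3493 CPM in KO treated, 69 and 646 CPM in KO vehicle, 6.34 to 17.7 CPM in WT treated and 1.57 to 57.7 CPM in WT vehicle libraries. Of 6 early erythroid markers, 6 were positive with a median of 3.25. Stem and progenitor markers summed to 824 to 1532 CPM in KO treated and 1093 to 1709 CPM in WT treated libraries, and 7 of 10 were positive with a median of 0.39. Granulocyte markers summed to 9724 to 30840 CPM in KO treated and 28066 to 144251 CPM in WT treated libraries, the highest in 266. The ranges of both lists overlapped, and 7 of 8 granulocyte markers were negative with a median of -1.87. Markers of T and NK cells summed to 6.61 to 12.4 CPM in KO treated and 0.516 to 3.59 CPM in WT treated libraries, and those of B cells to 35.4 to 65.5 CPM and 69.8 to 96.6 CPM. Stroma and endothelium markers summed to 32.7 to 67.5 CPM in KO and 22.8 to 28.7 CPM in WT treated libraries, with 5 of 5 positive and a median of 2.11. The sums separated the treated groups, but 0 of the 5 genes did so by itself. Pecam1 made up most of the sum, at 25.8 to 65.6 CPM in KO treated and 21.7 to 27.6 CPM in WT treated libraries. Cxcl12, Lepr, Col1a1 and Cdh5 were each at 4.63 CPM or less in the treated libraries. Cdh5 and Lepr were at 0 in 263 and 266, and Col1a1 in 262. The treated groups also overlapped in macrophage markers (246 to 470 CPM in KO, 230 to 328 CPM in WT), megakaryocyte markers (26.2 to 57.7 CPM and 33.7 to 42.0 CPM) and mast cell and basophil markers (40.4 to 93.6 CPM and 88.7 to 148 CPM). The part of a changed mix of sorted cells in the globin levels was not tested.

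Adult globin counts were set against those of red-cell genes within each library. For every count of Alas2 there were 33.6 (263), 34.8 (276) and 40.8 (275) adult globin counts, and 306 in 257, while the other 7 libraries had 27.3 (265) to 173 (252). For every count of Slc4a1, the band 3 anion exchanger, there were 84.3 (276), 95.3 (275) and 109 (263), and 1033 in 257. The other 7 libraries had 54.2 (249) to 738 (265), with 424 (266) to 547.5 (252) in WT treated libraries. Per count of Gata1 the 4 libraries with the most globin had 785 (275) to 2486 (257), and the other 7 had 4.64 (265) to 328 (253). Library 257 thus carried more globin per count of either red-cell gene than 263, 276 and 275. Several of the ratios in the other libraries rest on few counts, such as 1 count of Slc4a1 in 265.

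**Figure D5:**
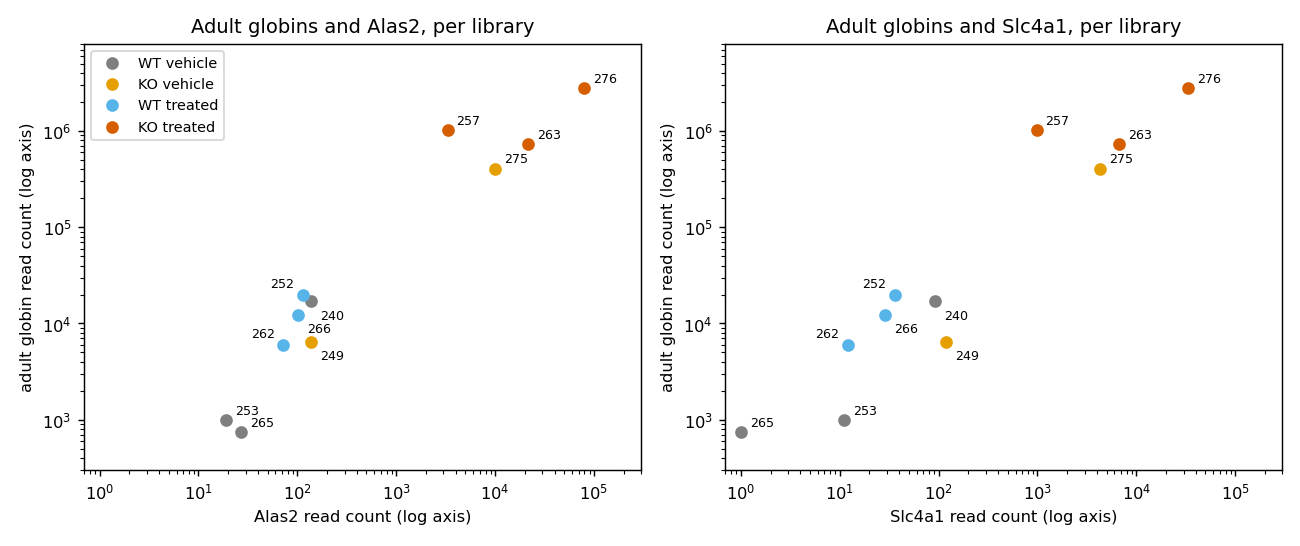
Adult globin read count against the read count of Alas2 (left) and Slc4a1 (right) in each of the 11 libraries, both axes log. Library 257 has fewer Alas2 and Slc4a1 counts than 263, 275 and 276, with 306 adult globin counts per Alas2 count against 33.6 to 40.8.

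Among the genes most like the summed adult globins over the 11 libraries, out of 8329 with a mean log2 CPM of at least 3, were Apol11b (Pearson r = 0.958), Alas2 (0.956), Tent5c (0.943), Slc4a1 (0.939), Blm (0.919), Rsad2 (0.91), Gch1 (0.901), Ube2l6 (0.898) and Rhd (0.893). These values describe the libraries and carry no test, since genes share library and depth. Tent5c averaged 253 CPM in KO treated, 40.5 CPM in KO vehicle, 2.11 CPM in WT treated and 3.25 CPM in WT vehicle libraries. Blm, a DNA helicase, covered a much narrower range, with means of 25.9, 18.9, 14 and 13.2 CPM in the same order. Alas2, Slc4a1 and Rhd are also in the haem and red-cell lists above.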

How the data were processed

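Read counts per Ensembl gene were used as deposited, with no normalization by the authors. Per the labels' protocols, a Qiagen micro kit gave the RNA, a SMARTer low-input kit the cDNA and Nextera XT the libraries. Per the submitters' processing notes, build GRCm39 was used. The same notes name STAR 2.7.9a, Trim Galore 0.6.7, DESeq2, bcl2fastq and HTSeq (given there as 0.6.7), and their order and settings are not given in the sources used here, nor are the annotation, read length and strand. The 5 summary lines were left out of library sizes and tests. They held 5.98% to 30.4% (outside genes), 2.34% to 6.31% (ambiguous) and 11.6% to 30.0% (not unique) of all reads.

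Identifiers were matched without version to GENCODE M21 (symbols for 52093 of 53700 genes, and transcript lengths). RefSeq promoters matched 6 of the 8 members. In R 4.3.3, edgeR 4.0.16 kept 16639 genes (filterByExpr) and fitted 1 robust quasi-likelihood model with 4 group means after TMM scaling (biological coefficient of variation 0.783). A call needed a Benjamini-Hochberg adjusted p below 0.05 over all genes tested. SE follows from the test, as log2 fold change over the root of F. CPM uses TMM-scaled library sizes. The scripts were tested on simulated data. Alternatives were DESeq2 1.42.0, limma 3.58.1 voom, other scalings, no filter, globin counts left out of library sizes, and libraries left out. Reads carry no molecular identifiers, so intervals and the floor of 3 counts cover counting error only. Named genes were all 8 members, up to 4 per list with the smallest p in treated hosts, and the 10 genes most like the adult globins. Some of the genes that this rule names are not reported here. The members and lists were chosen with earlier results of these data known.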

Additional observations from a re-analysis of the deposited data

How the results depend on the processing

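No paired analysis was possible because the library numbers are not shared between groups. Under RLE or upper-quartile scaling, and with globin counts left out of library sizes, edgeR called no member and kept each member's direction in all 6 comparisons. With no low-count filter edgeR called 43 genes for the niche effect in treated hosts, 11 in vehicle hosts, 83 averaged and 215 for treatment with the WT niche, none of them members. DESeq2 called 249 genes with 4 members, 224 with 2, and 366 with 4 for the 3 niche comparisons, and 1106 and 23 for treatment with the WT and KO niche and 58 for the interaction with no member. limma voom called 4375 genes with 4 members in treated hosts and 545 with 2 averaged. Leaving out 1 library, the calls ran from 0 to 1513 genes and 0 to 3 members in treated hosts, 0 to 85 genes in vehicle hosts, 0 to 1000 genes and 0 to 4 members averaged, 0 to 1012 genes for treatment with the WT niche and 0 to 1 for the interaction. The cause of these differences was not tested.

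Directions turned in 3 comparisons. Leaving out 1 library, the niche effect in vehicle hosts ran from -0.58 to 6.5 for Hba-a1, -0.87 to 6.56 for Hba-a2, -0.30 to 7.24 for Hbb-bs and -0.21 to 6.63 for Hbb-bt, the lowest without 275 and the highest without 240. Treatment with the WT niche ran from -0.27 to 2.59, -0.39 to 2.85, -0.19 to 2.90 and -0.39 to 2.63, and the interaction from -0.025 to 7.39 for Hba-a2 and -0.24 to 7.29 for Hbb-bs. Without both 253 and 265, treatment with the WT niche gave -1.01, -1.15, -0.97 and -1.16, and limma voom gave -0.39 for Hba-a2. Of 434 values of members under these alternatives, 381 kept direction and call, 31 gained a call and 22 turned direction. The niche effect in treated hosts ran from 6.17 to 7.39 for Hbb-bs when 1 library was left out. Depth limits the embryonic genes most in 265, where 0 counts allow up to 0.369 CPM.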

Other observations

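The theta-type globin gene Hbq1b is not among the listed members and was singled out after its values were seen. Its counts were 497 (257), 571 (263) and 1850 (276) under treatment in KO hosts and 327 (275) under vehicle. The other 7 libraries had 0 to 67 counts, the highest in WT vehicle 240. These were 22.8, 16.7, 68.5 and 13.4 CPM in the first 4 libraries, far below the adult alpha genes in the same libraries.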
